A study of Rattus norvegicus with 6 samples.

Results

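A stretch near the end of rat chromosome 7 in which most transcripts were lower in one of 2 menin-mutant INS-1 lines is described here gene by gene. The stretch was chosen from the data: it was marked out because RNA levels of neighbouring genes were lower in the S487D libraries than in the S487A libraries, so every difference between these groups below is a description and none is offered as a test. Its members are the listed genes lying between positions 130431107 and 145230686 of chromosome 7 in the rn6 assembly. Of 315 genes listed in that interval, 44 that belong to other gene families or pathways (the Hox, keratin, Rab and Wnt names and 11 single genes) were set aside, which left 271 members of 35362 genes in the table. INS-1 is an insulin-secreting rat insulinoma line, and all 6 libraries came from INS-1 cells at passages 75 to 80 that carried a pMX-puro retrovirus for Flag-tagged menin. In 3 libraries the introduced menin had the S487A substitution, which cannot be phosphorylated at that serine, and in the other 3 it had S487D, whose acidic side chain resembles a phosphate. The series title places the comparison in a study of how GLP-1 signalling acts on menin through phosphorylation in beta cells. Untransduced cells and cells with unmutated menin are not analysed here. The labels state neither whether a line was 1 clone or a pool nor whether separate cultures gave the 3 libraries of each group.

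Menin, the product of Men1, is a scaffold protein that joins MLL histone methyltransferases to chromatin and restrains the growth of endocrine cells. Neighbouring genes on a chromosome need share neither function nor regulation, and this stretch holds genes of many functions. It includes a cluster of alpha-tubulin genes, the Hoxc cluster, a large group of type II keratin genes, amino acid and metal transporters, and housekeeping genes of splicing, mitochondria and the endoplasmic reticulum. Several of its genes have roles in beta cells, among them Ppp1r1a, which encodes an inhibitor of protein phosphatase 1, and Vdr, the vitamin D receptor.

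The promoters of 5 members show the kinds of gene that the stretch holds, and were chosen for where each gene lay and how it behaved. Alg10 was a lowered gene near the left edge, Atp5g2 an abundant lowered gene near the right edge, Hnrnpa1 an abundant gene beyond that edge that was not lowered, and Tuba1a and Vdr 2 genes inside the stretch that were not lowered. Each sequence runs 5′ to 3′ on the gene's own strand from 250 bases before to 50 bases after the RefSeq start in the GRCr8 assembly, whose positions differ from those of rn6. Capitals mark 2 motifs on either strand: TGACG or its complement CGTCA, the core of cyclic AMP response elements, and GGGCGG or its complement CCGCCC, the GC box bound by Sp1-type factors.
Alg10, chr7:123214386-123214685, plus strand: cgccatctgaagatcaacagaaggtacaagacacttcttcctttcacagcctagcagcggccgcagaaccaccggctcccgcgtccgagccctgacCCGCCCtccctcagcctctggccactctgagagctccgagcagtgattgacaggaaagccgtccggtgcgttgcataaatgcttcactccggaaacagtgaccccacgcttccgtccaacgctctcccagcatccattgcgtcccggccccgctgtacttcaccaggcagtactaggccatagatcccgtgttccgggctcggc
Atp5g2 (RefSeq Atp5mc2), chr7:135678169-135678468, minus strand: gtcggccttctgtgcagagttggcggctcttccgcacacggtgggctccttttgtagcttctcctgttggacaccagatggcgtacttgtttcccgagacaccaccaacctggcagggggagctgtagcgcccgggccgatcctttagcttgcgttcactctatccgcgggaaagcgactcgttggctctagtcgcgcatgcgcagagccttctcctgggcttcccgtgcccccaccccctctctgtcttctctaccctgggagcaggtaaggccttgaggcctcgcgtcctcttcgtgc
Hnrnpa1, chr7:136253868-136254167, plus strand: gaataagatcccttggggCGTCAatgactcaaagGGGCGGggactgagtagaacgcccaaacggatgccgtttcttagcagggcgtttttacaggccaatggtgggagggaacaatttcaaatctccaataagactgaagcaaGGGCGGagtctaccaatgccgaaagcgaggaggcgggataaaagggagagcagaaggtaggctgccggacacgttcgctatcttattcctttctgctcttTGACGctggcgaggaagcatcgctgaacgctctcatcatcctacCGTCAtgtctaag
Tuba1a, chr7:131995770-131996069, minus strand: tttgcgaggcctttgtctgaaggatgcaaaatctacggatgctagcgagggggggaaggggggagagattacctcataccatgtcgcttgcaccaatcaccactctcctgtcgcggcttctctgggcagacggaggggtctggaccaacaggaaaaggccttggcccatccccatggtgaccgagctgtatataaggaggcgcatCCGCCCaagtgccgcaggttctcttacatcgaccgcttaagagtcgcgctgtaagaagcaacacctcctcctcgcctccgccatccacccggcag
Vdr, chr7:130916708-130917007, minus strand: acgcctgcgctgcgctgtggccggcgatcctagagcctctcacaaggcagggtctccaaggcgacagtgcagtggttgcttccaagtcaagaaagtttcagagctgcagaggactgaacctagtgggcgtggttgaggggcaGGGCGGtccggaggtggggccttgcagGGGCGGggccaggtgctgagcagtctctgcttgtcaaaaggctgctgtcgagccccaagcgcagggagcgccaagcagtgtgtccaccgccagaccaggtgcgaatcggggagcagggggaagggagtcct
The lowered Atp5g2 promoter held neither motif, the lowered Alg10 promoter 1 GC box, and the promoters of Tuba1a and Vdr 1 and 2 GC boxes. Hnrnpa1 held 3 TGACG motifs and 2 GC boxes. Of 271 members, 187 matched a RefSeq symbol and 141 had a promoter in the table, among them 90 of the 124 members with enough RNA to be compared.

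GC boxes were about as frequent in the members' promoters as in those of other genes compared in these cells. GGGCGG stood in 61 of 90 promoters (67.8%), against 64.6% of the 9078 promoters of all genes compared and 34.9% of all 27455 promoters of the same length. TGACG stood in 21 of 90 (23.3%), against 33.6% and 22.0%. The longer palindrome TGACGTCA, which contains TGACG, was found in 1 member promoter (1.11%), against 3.38% and 1.91%. Median GC content was 64.3% in members and 61.7% in all genes compared, and the observed-to-expected ratio of CpG dinucleotides was 0.721 and 0.79. Among the 71 promoters of members with a log2 change of -0.25 or lower, 49 (69.0%) had a GC box and 17 (23.9%) had TGACG. Of the 19 promoters of members above -0.25, 12 (63.2%) had a GC box and 4 (21.1%) had TGACG, with a median GC content of 58.3% against 65.7%. A match describes letters in a window and does not show that a factor binds there.

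The libraries held 9444801 to 10867549 reads assigned to genes, so 1 read in a 1 kb transcript was worth 0.092 to 0.1059 RPKM (reads per kilobase of transcript, scaled to the library's depth). Ribosomal RNA took 0.93% to 2.49% of reads in S487A and 2.15% to 4.5% in S487D. It was left out, together with the most read genes, only for the members' ratio of summed reads, and its part in the other results was not tested. Men1 stood at 71.2, 76.7 and 75.0 RPKM in the S487A libraries and at 113, 103 and 119 in the S487D libraries (means 74.3 ± 2.8 and 112 ± 7.8, SD, n = 3 each), where reads of the cell's own gene and of the introduced copy cannot be told apart. All 12 markers of the beta-cell line were detected, with summed RPKM of 8989 to 9608 in S487A and 21087 to 22246 in S487D. Most of that difference was Ins1, at 4489 to 5019 RPKM in S487A and 16211 to 17297 in S487D. Mafa (34.0 to 36.0, then 120 to 140), Ins2 (106 to 109, then 330 to 359) and Iapp (225 to 248, then 447 to 507) were higher as well. Nkx2-2, Slc2a2, Pcsk1, Pdx1 and Scg2 were also higher in S487D, by less and without overlap of the groups. Chga (3436 to 3575, then 3133 to 3289), Neurod1 (93.3 to 94.8, then 80.4 to 88.9) and Nkx6-1 (9.62 to 10.7, then 3.98 to 4.84) were lower in S487D. Each acinar, duct, fibroblast, immune and endothelial marker averaged under 1 RPKM. The highest was the acinar gene Ctrb1 at 0.913 RPKM, and the 6 acinar markers summed to 0.246 to 0.626 RPKM in S487A and 1.43 to 1.54 in S487D, with Cpa1, Cpb1 and Prss1 at 0 throughout. In RNA from whole cultures, a gene expressed in fewer cells and less of its RNA per cell cannot be told apart.

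Of the 271 members, 62 had no read in any library and 85 had reads but an RPKM too low to be compared. The other 124 reached 1 RPKM in at least 3 libraries and entered the comparison. The median log2 change of these 124 (S487D minus S487A, the difference of group means of log2(RPKM + 1)) was -0.51, with quartiles of -0.64 and -0.32. Over all 12527 genes compared it was -0.01, with quartiles of -0.20 and 0.14. A change below 0 was seen in 113 of 124 members (91.1%) and in 52.3% of all genes compared. With limma's adjusted p under 0.05, 101 members were called lower, against 24.3% of all genes compared, and 3 were called higher, against 20.1%. All S487D libraries lay below all S487A libraries for 104 members, where 29.5% of all genes compared did so, and above them for 4, where 25% did so. These counts describe members that this same contrast picked out. In 5 of the 124 every S487D library was under 1 RPKM, so that they entered the comparison only through S487A and had to be lower, while in 0 every S487A library was.

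**Figure D1:**
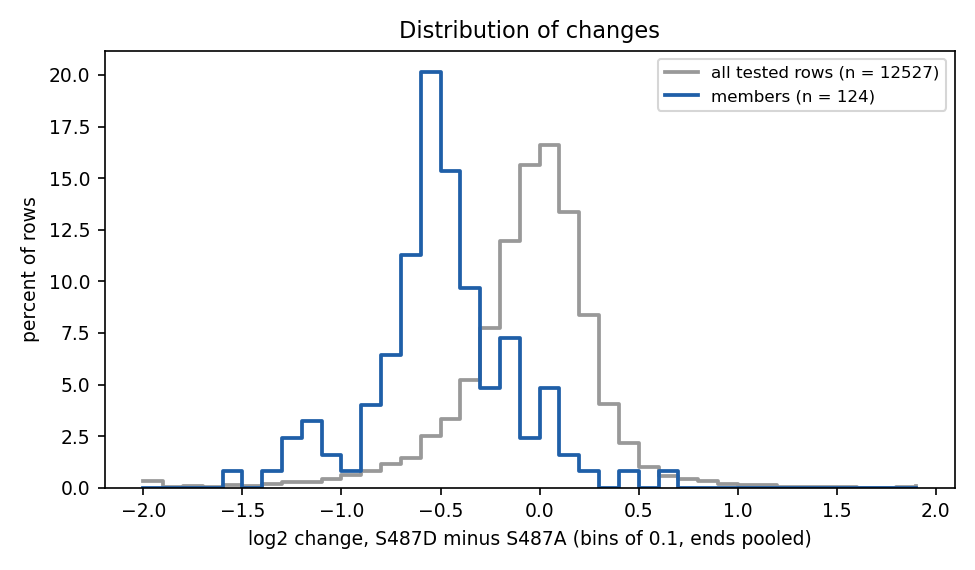
Percent of genes (vertical axis) by log2 change, S487D minus S487A (horizontal axis, bins of 0.1 with the ends pooled), for the 124 compared members in blue and all 12527 compared genes in grey. The members' peak lies near their median of -0.51 and the peak of all genes near -0.01, and the 2 outlines have about the same width (interquartile ranges 0.325 and 0.339).

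On a linear scale the members' ratios centred below 1. The spread of their log2 changes was about that of all genes compared (interquartile ranges 0.325 and 0.339). Among the 91 members with a mean of at least 5 RPKM, the ratio of S487D to S487A had a median of 0.683, with quartiles of 0.619 and 0.752, and 64 (70.3%) had a ratio from 0.5 to 0.8. Over the 8926 genes of that level in the whole table the median was 1.01 and 12.1% had a ratio from 0.5 to 0.8. That band lies around the members' own median, so these shares restate the shift. Added together, the members took 13345, 13444 and 13641 of each 1000000 reads in the S487A libraries and 9935, 9696 and 9698 in the S487D libraries. The groups did not overlap, and the ratio of their means was 0.725. Peripherin (Prph) alone gave 13.9% of the members' reads. Within a group the members moved little together: the median of their deviations from the group mean lay between -0.020 and 0.025 on the log2 scale over the 6 libraries. For all genes compared it lay between -0.021 and 0.017, about the same range.

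Read along the chromosome, the lowered members formed a run with an end on each side. The edges were set where the running median over 11 compared genes, the set-aside ones included, crossed the midpoint between 0 and the members' median, that is -0.25. By this rule the run went from Shank3 (start 130474278) to Hoxc8 (end 144607639), and its right end was the same with a window of 5 genes. A window of 21 genes has no value past Hoxc8, so it says nothing of the right end. The left end moved to Rabl2a (130556056) with 21 genes and to Prph (140741633) with 5 genes, the latter because a window that short breaks at the alpha-tubulin cluster.

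**Figure D2:**
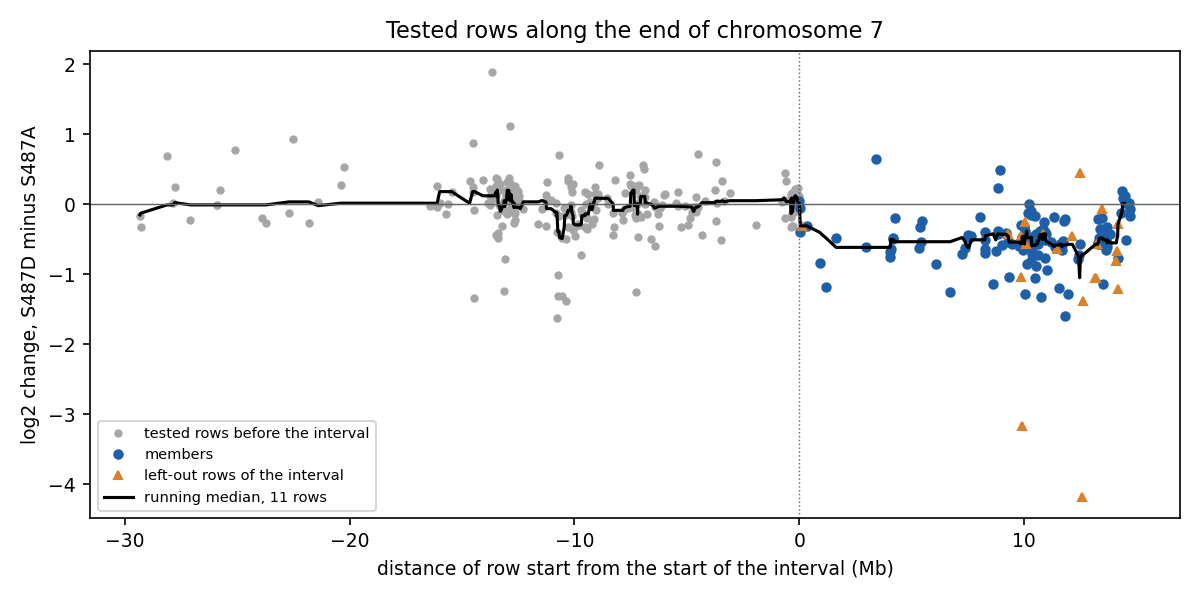
Log2 change, S487D minus S487A (vertical axis), of each compared gene by its distance in Mb from the start of the interval (horizontal axis), with members in blue, set-aside genes of the interval as orange triangles, genes before the interval in grey and the running median over 11 genes as a black line. The line lies near 0 before the interval apart from short dips, drops at its start, mostly stays near -0.5 and returns to about 0 in the last few genes.

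At the left edge, genes outside the interval were not lower. The 25 compared genes before it had a median log2 change of 0.06, with 6 called lower, 6 called higher and 13 neither. The nearest 3 were Tymp, a thymidine phosphorylase, at 0.14 ± 0.06 (SE), Cpt1b, the muscle-type carnitine palmitoyltransferase, at 0.23 ± 0.12, and Chkb, a choline kinase, at 0.12 ± 0.05. Just inside came Mapk8ip2, a scaffold of JNK signalling, at 0.05 ± 0.04, the lysosomal sulfatase gene Arsa at -0.40 ± 0.08 and the synaptic scaffold gene Shank3 at -0.06 ± 0.08. Rabl2a, a set-aside gene, came next with 5.38, 5.92 and 7.39 RPKM in S487A, against 5.22, 4.49 and 4.72 in S487D, close values that did not overlap (-0.31 ± 0.10). Syt10, a synaptotagmin, followed at -0.31 ± 0.12 with groups that overlapped. Then came Alg10, which adds the last glucose to the precursor of N-linked sugar chains. It measured 43.9, 39.5 and 38.7 RPKM in S487A, against 21.4, 23.1 and 22.6 in S487D, a log2 change of -0.84 ± 0.06. The 2 groups were wide apart, and from Alg10 on most compared genes were lowered. Between the end of Shank3 and the start of Alg10 lie 796233 bases with 4 listed genes, so the left edge falls in a thinly filled place.

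The right edge, unlike the left, was the same with windows of 5 and 11 genes. Atp5g2, at 144264207 to 144272578, stood at 635, 666 and 676 RPKM in S487A and at 497, 498 and 472 in S487D, a ratio of 0.742. Hoxc8, one of the set-aside genes, was the last compared gene of the run and was lower, with 4.87, 3.97 and 3.96 RPKM against 1.43, 1.20 and 1.21. Between Hoxc8 and Smug1 lie 166515 bases with 6 listed genes. Of these, Hoxc6, Hoxc5 and Hoxc4 were set aside and too low to compare. Their means were lower in S487D (ratios 0.591, 0.752 and 0.708), without overlap of the groups in Hoxc6 and Hoxc4. LOC103692988 was compared, at -0.13 ± 0.10 with groups that overlapped. Then came Smug1, a uracil-DNA glycosylase, with 11.7, 12.1 and 12.1 RPKM in S487A, against 14.4, 13.5 and 13.5 in S487D. Every S487D library was above every S487A library there, with a log2 change of 0.19 ± 0.05. From Smug1 to the end of the interval the changes were small in 8 of 9 compared members. The other was Itga5, the integrin alpha 5 gene, at 1.61, 1.55 and 1.73 RPKM against 0.865, 0.956 and 0.723, a log2 change of -0.51 ± 0.10. Every S487D library of Itga5 was under 1 RPKM, so it entered the comparison only through S487A and had to be lower. The last 3 members inside the limit were Pde1b, a calmodulin-dependent phosphodiesterase, at 0.01 ± 0.10, Ppp1r1a at -0.07 ± 0.06 and LOC102547969 at -0.17 ± 0.08. Beyond the limit 11 genes are listed, 8 of them at 0 in every library and none above 0.357 RPKM, so the far side of the interval gave nothing to compare.

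**Figure D3:**
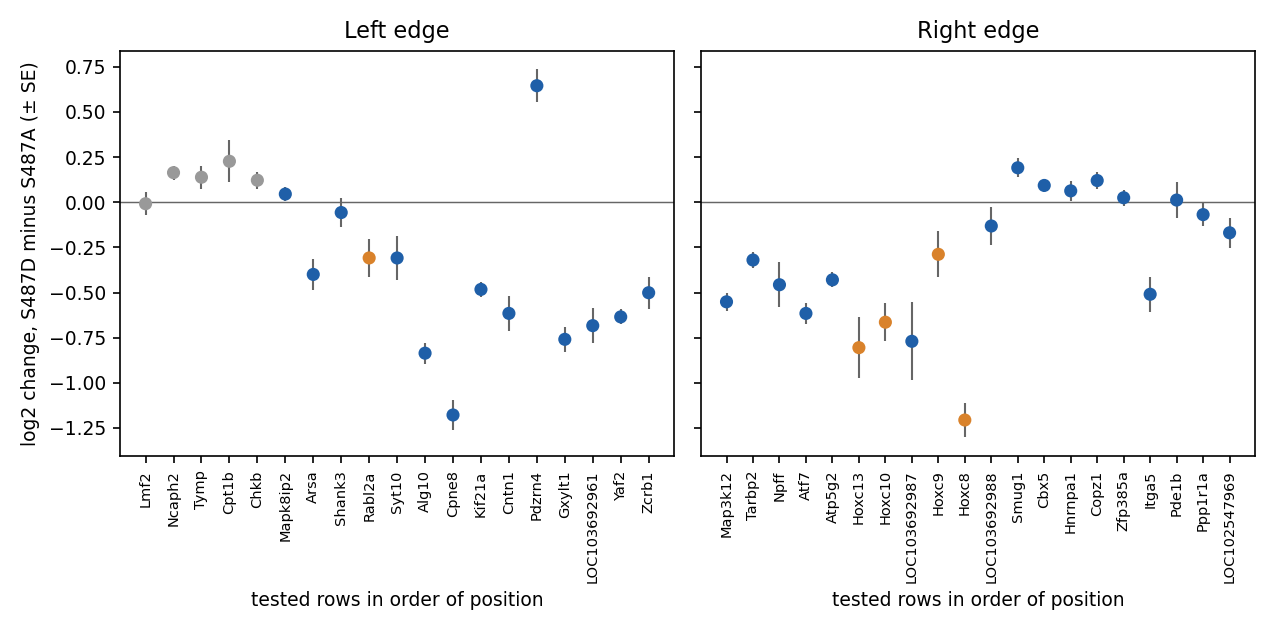
Log2 change ± SE (vertical axis) of the compared genes at the left and right edges in order of position (horizontal axis), with members in blue, set-aside genes in orange and genes before the interval in grey. At the left the values leave 0 between Mapk8ip2 and Alg10, and at the right they return to it between Hoxc8 and Smug1.

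The inner stretch, from the start of Alg10 to the end of Hoxc8, was chosen after these values were seen. It spans 13276727 of the 14799580 bases and holds 110 of the 124 compared members. Their median log2 change was -0.53, with quartiles of -0.66 and -0.40, and 106 were below 0. Of the 110, 99 were called lower, 2 higher and 9 neither. The 14 compared members outside it had a median of -0.02, with 7 below 0, 2 called lower and 1 called higher. Within the inner stretch 67 members lay between -0.75 and -0.35, 11 lay below -1 and 16 lay above -0.25. In steps of 2 Mb from 132 to 144 Mb the median ran from -0.48 to -0.66, with no steady trend: it was -0.48 over 3 compared members at 132 to 134 Mb, -0.52 over 10, -0.66 over 6, -0.51 over 17, -0.51 over 40 and -0.56 over 22. The ends, at 130 to 132 and 144 to 146 Mb, gave -0.35 over 6 and -0.37 over 20.

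Among inner members of at least 5 RPKM, ratios were lower, that is further from 1, in the less abundant ones. Split into 3 classes by mean RPKM, the inner members had median log2 changes of -0.51 (0.637 to 6.15 RPKM), -0.59 (6.62 to 24.5 RPKM) and -0.48 (24.6 to 612 RPKM). That scale understates changes of low genes, and the median ratio of members with at least 5 RPKM rose across the same classes, from 0.604 (10 members) to 0.638 (36) and 0.708 (37). The spread of the log2 change narrowed as level rose, with interquartile ranges of 0.356, 0.244 and 0.171. Over the 83 inner members of at least 5 RPKM, which come from the same 6 libraries, Spearman's rho of the ratio was 0.334 with mean RPKM, -0.189 with transcript length and 0.0368 with position. Over all 110 compared inner members, rho of the log2 change with mean RPKM was 0.0613. Strand made little difference: the median was -0.50 for 57 compared members on the plus strand and -0.51 for 67 on the minus strand.

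Membrane transporters and channels were mostly lower, as were the other lists below, and the amino acid carriers among them differed in size. Of 16 members on this list 12 were compared, 11 were called lower and 0 higher, with a median log2 change of -0.44. Of all compared members 81.5% were called lower and 2.42% higher, against 24.3% and 20.1% of all genes compared. The counts of this list and those below are to be read beside these shares, and lists were not tested against each other. Slc38a2, a sodium-coupled carrier of neutral amino acids that cells raise when amino acids are scarce, measured 67.1, 61.4 and 61.4 RPKM in S487A, against 47.0, 44.6 and 46.5 in S487D. The groups did not overlap (ratio 0.727), and its neighbour Slc38a1 had a ratio of 0.685. Slc38a4, of the same family and in the same cluster, measured 30.4, 29.1 and 29.6 against 26.6, 26.3 and 25.4, a ratio of 0.878. The haem transporter gene Slc48a1 fell from 38.8 ± 2.9 to 28.7 ± 1.9 RPKM, and Slc11a2, the divalent metal carrier, from 25.6 ± 0.67 to 17.0 ± 0.92. Mfsd5, a molybdate transporter, had 26.8, 27.0 and 25.1 RPKM against 22.9, 20.7 and 24.8, with groups that nearly touched. The largest differences were those of Slc4a8, a sodium-driven chloride and bicarbonate exchanger, and Ano6, a calcium-activated scramblase and channel.

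Cytoskeletal genes differed between neighbours. Of 12 on the list 10 were compared, 8 were called lower and 0 higher, with a median of -0.46. Prph encodes peripherin, an intermediate filament protein of neurons and endocrine cells, and was the most abundant member of the stretch per length. It measured 726, 743 and 749 RPKM in S487A, against 490, 475 and 488 in S487D, a ratio of 0.655. Every S487D library lay well below every S487A library. Just before it lies the alpha-tubulin cluster, where the values were close to level. Tuba1b had 312, 317 and 326 RPKM against 293, 301 and 280, a ratio of 0.916. Tuba1a had 134, 129 and 138 against 135, 136 and 130, so that the groups overlapped and their means were the same (134 ± 4.6 and 134 ± 3.3). Tuba1c, at 3.62 ± 0.73 and 3.33 ± 0.67 RPKM, overlapped as well. The 3 tubulin genes are near-identical copies, and reads that fit more than 1 of them may have been split or lost in counting. Troap, a spindle-associated protein gene just past Prph, had a ratio of 0.894. On both sides of this group the other members were lower: Lima1, an actin-bundling protein gene, fell from 31.6 ± 0.80 to 16.1 ± 0.88 RPKM, Twf1, which binds actin monomers, from 41.6 ± 2.5 to 28.5 ± 2.9, and the kinesin gene Kif21a from 38.7 ± 0.25 to 27.4 ± 0.64.

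Transcription factor genes were mostly lower, with Vdr the exception. Of 13 on the list 10 were compared, 8 were called lower and 1 higher, with a median of -0.52. Yaf2, a partner of the Polycomb RING proteins, measured 71.4, 69.6 and 66.2 RPKM in S487A, against 44.3, 43.8 and 44.1 in S487D. Sp1, which encodes a factor that binds GC boxes, measured 23.3, 23.8 and 21.3 against 15.8, 15.5 and 15.4. In both genes the groups were wide apart, with ratios of 0.639 and 0.683. Csrnp2, Tfcp2 and Atf7 had ratios of 0.644, 0.671 and 0.621, and the retinoic acid receptor gene Rarg had 0.75. Vdr measured 3.85, 3.88 and 4.48 RPKM in S487A, against 6.07, 6.02 and 6.17 in S487D. Every S487D library was above every S487A library, with a ratio of 1.5, although Vdr lies well inside the lowered run, with lowered genes on both sides. Zfp385a, beyond the right edge, was level at 42.3 ± 1.4 and 43.1 ± 1.2 RPKM.

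**Figure D4:**
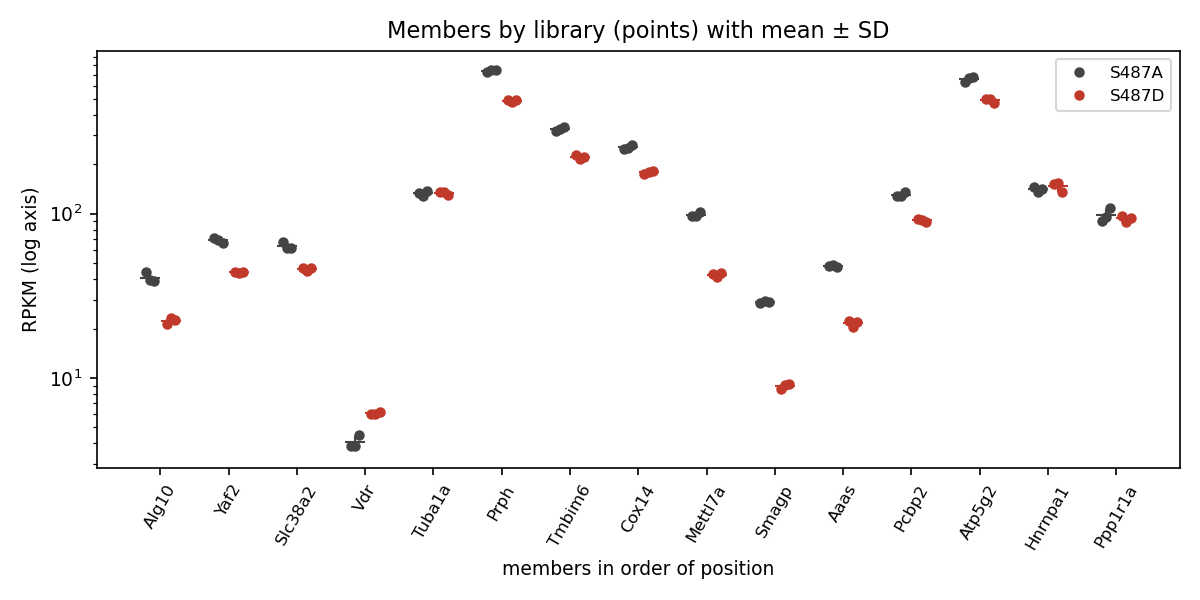
RPKM on a log axis (vertical) for 15 members in order of position (horizontal), with a point for each library, S487A in grey and S487D in red, and a line for each group mean with its SD. The S487D points lie below the S487A points except in Vdr, where they lie above, and in Tuba1a, Hnrnpa1 and Ppp1r1a, where they overlap.

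Genes of chromatin and nuclear regulation split by where they lay. Of 10 on the list 9 were compared, 7 were called lower and 1 (Smug1) higher, with a median of -0.40. Arid2, a subunit of the PBAF remodelling complex, had 15.3, 15.4 and 14.9 RPKM against 8.82, 8.86 and 9.10, a ratio of 0.587. Smarcd1, a subunit of SWI/SNF complexes, had 43.1, 45.4 and 43.2 against 34.0, 30.8 and 34.2, a ratio of 0.752. Aaas, which encodes the nuclear pore protein aladin, fell furthest, from 48.4, 49.0 and 47.4 to 22.1, 20.5 and 21.8. Mcrs1, a subunit of the NSL histone acetyltransferase complex, stayed closest to level inside the run, with 93.2, 99.1 and 103 against 87.5, 91.3 and 84.3. Cbx5, the gene of heterochromatin protein 1 alpha, lies beyond the right edge and had 64.8, 63.7 and 65.8 RPKM against 68.1, 70.2 and 69.1. There the S487D libraries were the higher ones, by a ratio of 1.07.

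RNA-binding and processing genes were lower in 10 of 11 cases, and Hnrnpa1 was the one that was not. Their median log2 change was -0.51. Ddx23, a spliceosomal helicase gene, measured 126, 129 and 132 RPKM in S487A, against 95.9, 88.7 and 95.9 in S487D. Pcbp2, which encodes a poly(C)-binding protein, measured 129, 128 and 135 against 93.1, 91.4 and 89.6. Both had ratios near the members' median (0.725 and 0.699). Zcrb1, of the minor spliceosome, fell from 48.8 ± 5.0 to 34.2 ± 4.0 RPKM, and Prpf40b, a splicing factor gene, from 12.6 ± 0.19 to 6.37 ± 0.21. Hnrnpa1, beyond the right edge, had 146, 134 and 142 against 152, 154 and 135, and its groups overlapped.

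Genes of the secretory pathway, protein folding and autophagy gave 8 compared members of 10, with 7 called lower and 0 higher and a median of -0.57. Tmbim6, a calcium-regulating protein of the endoplasmic reticulum that limits cell death, measured 319, 327 and 335 RPKM in S487A, against 227, 214 and 220 in S487D, a ratio of 0.675. Pfdn5, a subunit of the prefoldin chaperone, measured 191, 188 and 207 against 149, 139 and 130, a ratio of 0.714. Dnajc22 had a ratio of 0.603, Gxylt1 0.572 and the peptidyl-prolyl isomerase gene Fkbp11 0.623. Copz1, a coatomer subunit gene beyond the right edge, had 99.5, 97.3 and 109 against 115, 108 and 110, and its groups overlapped.

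All 10 compared members of the 11 on the mitochondrial and metabolic list were called lower, with a median of -0.51. Atp5g2, whose values are given above, encodes subunit c of ATP synthase. Cox14, needed to assemble cytochrome c oxidase, measured 247, 252 and 263 RPKM against 175, 178 and 183, a ratio of 0.704. Gpd1, the cytosolic glycerol-3-phosphate dehydrogenase of a shuttle that passes reducing equivalents to mitochondria, fell from 73.6 ± 3.2 to 42.7 ± 0.63. Cers5, a ceramide synthase gene, fell from 78.4 ± 3.0 to 58.3 ± 2.2, and Prkag1, a regulatory subunit of AMP-activated kinase, from 53.0 ± 1.5 to 40.4 ± 2.0. Mettl7a, a lipid-droplet-associated methyltransferase-like protein gene, had the lowest ratio of the list, 0.431.

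Signalling genes were compared in 9 of 15 cases, with 6 called lower and 0 higher and a median of -0.55. Acvr1b, a type I activin receptor, measured 11.5, 12.3 and 12.2 RPKM in S487A, against 6.61, 6.10 and 6.90 in S487D, a ratio of 0.545. Rhebl1, a Rheb-like GTPase gene, had 22.0, 23.2 and 20.6 against 10.9, 12.3 and 12.1, a ratio of 0.535. Map3k12, a kinase upstream of JNK, had 19.9, 19.7 and 19.2 against 13.5, 13 and 12.7, a ratio of 0.666. Ppp1r1a lies beyond the right edge and had 90.8, 95.9 and 108 RPKM against 96.5, 89.4 and 94.4. Its groups overlapped, and it shares bases with LOC102547969, so their reads cannot be told apart.

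Of 15 genes on the list of matrix, adhesion and secreted proteins 7 were compared, with 5 called lower and 1 higher and a median of -0.51. Nell2, a secreted glycoprotein of neurons, measured 47.1, 46.3 and 47.2 RPKM against 26.1, 24.5 and 25.8, a ratio of 0.543. Amigo2, an adhesion protein gene, had 20.3, 21 and 19.4 against 12.6, 12.1 and 11.8. Npff, the precursor of neuropeptide FF, had 2.25, 2.49 and 1.54 against 1.32, 1.19 and 1.20, low values that nearly met. The one called higher, Pdzrn4, is a PDZ and RING domain protein gene rather than a matrix gene. It had 1.45, 1.69 and 1.79 RPKM in S487A, against 2.87, 3.12 and 3.43 in S487D, a ratio of 1.91 and the highest log2 change of any compared member (0.65 ± 0.09).

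**Figure D5:**
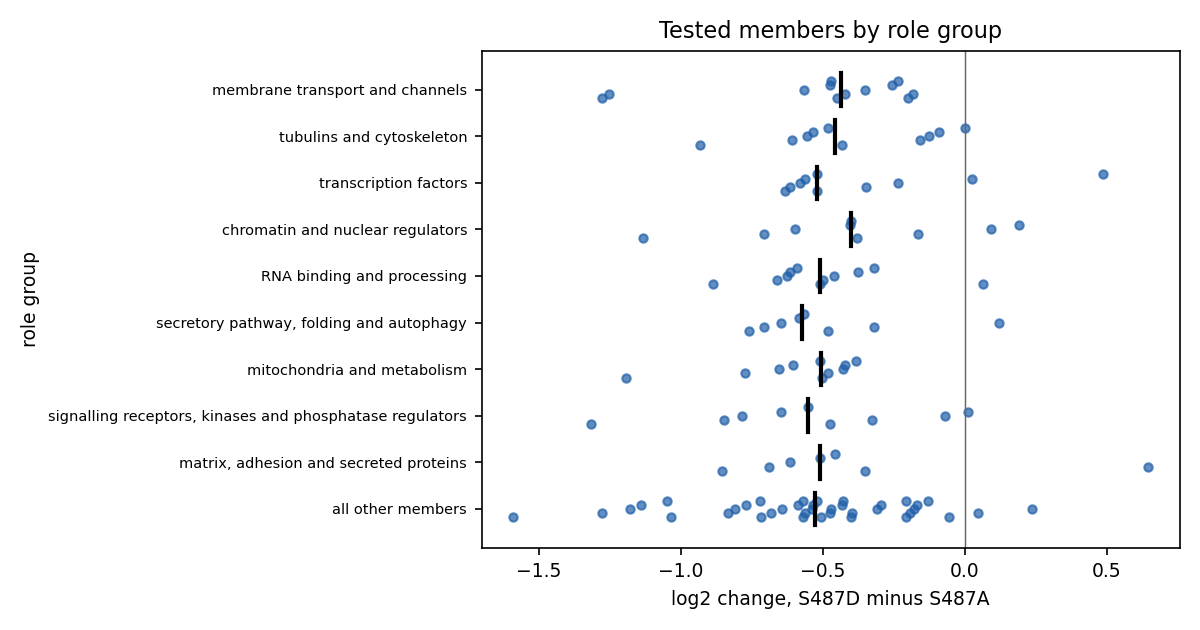
Log2 change, S487D minus S487A (horizontal axis), of each compared member by role group (vertical axis), with a point for each gene and a black bar for the group median. The medians of the 10 groups lie between -0.57 and -0.40, and the points right of 0 are the members that were not lower.

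The remaining 158 members fall in no list, and 38 of them were compared. Of these 29 were called lower and 0 higher, with a median of -0.53. Dazap2, an abundant adaptor protein gene chosen after its values were seen, measured 206, 203 and 211 RPKM in S487A, against 183, 181 and 173 in S487D, a ratio of 0.866. Uncharacterised genes with LOC or RGD names made up 117 of the 271 members, and 18 of them were compared, with a median of -0.55.

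Members that were not lower were few, and most lay beyond the edges. Among 123 compared members with a mean of at least 1 RPKM, 11 had a log2 change of 0 or above. Of these 11, 4 lay in the inner stretch: Pdzrn4, Vdr, LOC102548155 and Tuba1a. Under the other settings tried Pdzrn4 ranged from 0.59 to 0.92, Vdr from 0.46 to 0.58 and LOC102548155 from 0.15 to 0.35, while Tuba1a changed sign, from -0.06 to 0.06. LOC102548155 measured 2.20, 2.59 and 3.11 RPKM in S487A, against 2.69, 3.65 and 3.50 in S487D, with groups that overlapped. The other 7 were Mapk8ip2 at the left edge and Smug1, Cbx5, Hnrnpa1, Copz1, Zfp385a and Pde1b at the right. Smug1 stayed between 0.16 and 0.25, Cbx5 between 0.07 and 0.15, Copz1 between 0.05 and 0.18 and Mapk8ip2 between 0.02 and 0.10. Hnrnpa1, Zfp385a and Pde1b reached -0.01, -0.00 and -0.06 under some settings. The 16 inner members above -0.25, which include those 4, also held all 3 alpha-tubulin genes, Troap, Mcrs1, Dazap2, Spryd3, Slc38a4 and Mfsd5.

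The members with the largest falls were of mixed function and lay in different places along the run. Smagp, a small membrane glycoprotein gene of epithelial cells, measured 28.6, 29.3 and 29.1 RPKM in S487A, against 8.59, 9.12 and 9.19 in S487D, a ratio of 0.309. Faim2, an inhibitor of Fas-driven cell death, measured 8.64, 8.54 and 8.83 against 3.28, 2.68 and 2.71, a ratio of 0.333. Slc4a8 measured 17.7, 17.4 and 17.2 against 6.09, 6.01 and 7.81, a ratio of 0.381. The groups were wide apart in all 3 genes. Ddn, which encodes dendrin of neurons and podocytes, had a ratio of 0.339, Ano6 0.345, the copine gene Cpne8 0.389, Ccdc184 0.434 and LOC102551901 0.232. Every S487D library of LOC102551901 was under 1 RPKM, so this gene entered the comparison only through S487A and had to be lower. Mettl7a and Aaas, with ratios of 0.431 and 0.445, complete the 10 largest falls among members with a mean of at least 1 RPKM. Fam186b, named after its values were seen, had 1.40, 1.14 and 1.08 RPKM against 0.0621, 0.0334 and 0.101, a ratio of 0.0543 at a mean level under 1 RPKM. Fam186b likewise entered only through S487A and had to be lower. In these genes the log2 change was below -1, against the median of -0.53 in the inner stretch.

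Some reads could not be given to 1 gene with certainty. The library kit is not stated to keep strand. Where 2 listed genes overlap, or lie antisense to each other, a read cannot be assigned to either with certainty, and 38 of the 124 compared members overlap another listed gene. Smagp overlaps the end of Dazap2, and Zcrb1 the start of Pphln1. The median log2 change was -0.56 over these 38 and -0.48 over the other 86, with 69 of the 86 called lower and 3 higher.

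Members too low to compare leaned the same way, with few reads. Of 85 such members, 57 had a lower mean in S487D and 28 a higher one. That is 67.1% lower, against 54.9% of all 10653 genes with reads that were too low to compare. Together the 85 held 515, 547 and 495 reads in the S487A libraries and 364, 324 and 326 in the S487D libraries. Olfactory receptor genes made up 9 members, and none was compared: their highest value was 1.33 RPKM. That value was of Olr1877, named after its values were seen, which had 1.31, 1.33 and 0.959 RPKM in S487A, against 0.256, 0.138 and 0.418 in S487D, from 69 reads in all. With no filter on low values, 209 members entered limma's fit and 105 (50.2%) were called lower, against 12.9% of all 23180 genes in that fit.

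The 44 set-aside genes of the interval gave 21 compared genes with a median log2 change of -0.57, of which 17 were called lower and 1 higher. They held the largest fall of the interval, named after its values were seen: the keratin gene Krt80 went from 63.7 ± 4.1 to 2.59 ± 0.23 RPKM. The rest of chromosome 7 had a median of 0.02 over 686 compared genes, 150 called lower and 179 higher.

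Other stretches of the genome that differed between the lines were chosen in the same way and have values of their own. On chromosome 2, from 105 to 182 Mb, the median log2 change was -0.75 over 144 compared genes, with a ratio of 0.545 at 5 RPKM or more. On chromosome 20, from 29 to 56 Mb, 97 compared genes had a median of -0.47 and a ratio of 0.702. On chromosome 14, from 1 to 11 Mb, 51 compared genes had a median of 0.68 and a ratio of 1.77. These values cover all compared genes of each stretch. The stretch of chromosome 7, at 0.683 for members and 0.677 with the set-aside genes put back, lay between the 2 other lowered stretches. The differences between stretches were not tested.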

How the data were processed

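mRNA of 6 INS-1 libraries (3 S487A, 3 S487D) was sequenced by the submitters after Trizol extraction and a TruSeq preparation, per the labels' protocols. The submitters' processing notes name bcl2fastq 2.17, cutadapt, TopHat2 2.0.13 and rn6. The counter is not given in the sources used here. In 1 table, the authors deposited RPKM per gene, per the file headers, with position, strand and length. In each library RPKM times length rose in even steps, and the step taken as 1 read gave the depth. With depths fitted to these same values, 100.0% of values up to 2000 reads were whole to within 0.05. Genes that reached 1 RPKM in 3 or more libraries were compared with limma 3.58.1 (R 4.3.3; intensity trend, Benjamini-Hochberg, threshold 0.05) on log2(RPKM + 1), a scale that understates changes of low genes, over all 12527 genes. The code was tested on simulated data. With 3 against 3, an exact permutation test of 1 gene cannot give a two-sided p below 0.1. P-values measure the spread between these libraries, which may be technical.

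Members, role lists and edges were chosen with earlier results of these data known, so no test over them is given. Genes were named by rule: the up to 4 most abundant compared members of each role list, the 10 largest falls and the members at 0 or above (both among means of at least 1 RPKM), and 3 genes on each side of each edge. Others were picked to fill out their list after their values were seen. Replicate numbers were not used to pair libraries in the main fit. Promoters came from RefSeq (GRCr8). Alternatives were another pseudocount, other filters and scalings, no trend, a replicate block, each library left out, and, chosen after seeing the data, voom on recovered reads and other member sets.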

Additional observations from a re-analysis of the deposited data

How the results depend on the processing

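Members stayed mostly lower under every setting tried, and none of 774 values of 56 named genes changed from a called direction to the other. The members' median log2 change was -0.51 and became -0.56 with a pseudocount of 0.1, -0.48 with quantile normalization, -0.45 with each library centred on its median and -0.57 with voom on recovered reads. With no filter on low values it was -0.23 over 209 members, 170 of them below 0, because genes near 0 enter. Centring raised the members called higher from 3 to 5. The 25 genes before the interval moved from 0.06 to 0.13 with quantile normalization and 0.12 with centring. Leaving out ribosomal RNA and the 10 most read genes of each library, pooled over libraries, moved the ratio of summed reads from 0.725 to 0.738. The left edge fell at 140741633 with a window of 5 genes and at 130556056 with 21. The right flank had no compared gene, so no alternative gave a value there.

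Without 1 library at a time, the members' median ran from -0.52 to -0.49, those below 0 from 106 to 115, those called lower from 90 to 100, those called higher from 3 to 4, the left flank from 0.05 to 0.08 and the ratio of summed reads from 0.720 to 0.730. All genes called higher ran from 1895 to 2343 and lower from 2495 to 2734, against 2523 and 3041. Of all calls 45.3% were higher, against 55.4% with quantile normalization and 58.9% with centring. Voom called 2654 higher and 3297 lower. With the replicate number as a block, 2369 were higher and 2966 lower, and 100 members were lower. Same-numbered libraries did not deviate together (correlations 0.0035, -0.060 and 0.010, against -0.0997 to 0.101 for unlike numbers). With 3 libraries per group these values cannot decide whether the numbers pair libraries. Depth limits members under 1 RPKM.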
